A study of Mus musculus with 8 samples.

Results

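Foxp3, Cd8b1, Nkg7, Cd79b and Bcl11b, 5 genes best known from lymphocytes, were followed here in mouse myeloid leukaemia stem cells. They were taken from the 19057 gene symbols on the array because earlier results of the same arrays had shown signal for them. They were thus chosen by their measured signal, which is not a finding here, and the change of each was known as well. All probes whose annotated symbol is one of the 5 were read, 14 probes among 45281: 4 for Foxp3, 3 for Cd8b1, 1 for Nkg7, 2 for Cd79b and 4 for Bcl11b. The cells carried the MLL-AF9 fusion oncogene and came from C57BL/6 mice with an Actin-dsRed transgene, a red fluorescent reporter. They had been sorted from leukaemic bone marrow after a quaternary transplant as dsRed+ cells with low Hoechst stain that were c-kit high, CD34+ and FcγRII high. Every cell sample carried a hairpin RNA as well: against luciferase in the Luc control (3 arrays), or against Itgb3, the integrin beta 3 gene, as Itgb3-17 (3 arrays) or Itgb3-20 (2 arrays). The age of the mice, and whether the arrays of a group came from separate or pooled animals, are not given, so each p-value reflects variation among these arrays, part or all of which may be technical.

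In lymphocytes the 5 genes have separate roles. Foxp3 is the forkhead transcription factor that defines regulatory T cells. Cd8b1 encodes the beta chain of the CD8 coreceptor, which pairs with the alpha chain encoded by Cd8a on cytotoxic T cells. Bcl11b is a zinc finger transcription factor needed for commitment to the T lineage. Nkg7 is a membrane protein of the cytotoxic granules of natural killer (NK) and cytotoxic T cells. Cd79b, or Ig-beta, is a signalling chain of the B cell receptor that, with Cd79a, recruits the kinase Syk.

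Foxp3 was the member whose signal rose with knockdown, and the table of RefSeq promoters holds 2 start regions for it, both on the + strand of GRCm38.p6. The 250 bases before each start are shown because they precede the member that moved most; the arrays hold no measurement on them. The first region lies at chrX:7579426-7579675 and the second at chrX:7580233-7580482, with the motif TATAAA in capitals.
Foxp3 region 1: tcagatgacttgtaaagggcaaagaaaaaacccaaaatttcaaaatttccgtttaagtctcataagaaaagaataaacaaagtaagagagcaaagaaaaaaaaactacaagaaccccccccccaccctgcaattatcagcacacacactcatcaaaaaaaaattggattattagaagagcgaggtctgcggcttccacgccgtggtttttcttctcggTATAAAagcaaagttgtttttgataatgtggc
Foxp3 region 2: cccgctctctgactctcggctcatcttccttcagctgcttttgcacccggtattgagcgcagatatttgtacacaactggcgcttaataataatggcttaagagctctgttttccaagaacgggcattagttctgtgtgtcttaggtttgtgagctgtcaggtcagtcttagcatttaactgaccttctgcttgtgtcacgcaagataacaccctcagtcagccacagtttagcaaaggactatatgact
TATAAA was found on either strand in 12.37% of the 32851 promoter windows of the same length, and here it occurred once in region 1 and 0 times in region 2. The Runx motif TGTGGT, found in 14.05% of windows, occurred 0 times in both regions. The Ets core GGAA, found in 93.45% of windows, occurred 2 times in each. A Stat motif, TTCNNNGAA, was in region 2 once and in 7.02% of all windows. These letter matches describe the windows and say nothing of binding.

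Most member probes lay at or near background. A probe was tested when its detection p was under 0.05 on at least 2 arrays, which 8 of the 14 reached, while 6 were above background on 0 or 1 array. Exactly 1 probe of each gene was above background on all 8 arrays. The 6 untested probes, 2 each of Foxp3, Cd8b1 and Bcl11b, had array signals between 85.2 and 116 on the scanner's linear scale, where the median signal of an array was 91.2 to 102. After normalization their levels were 4.22 to 5.01 on the log2 scale. The spread is clearest for Cd8b1: probe ILMN_1257694 gave signals of 798 to 1620, while its other probes gave 89.3 to 107. Signals of different probes depend on each probe's own sequence and are not levels relative to each other. So for Foxp3, Cd8b1 and Bcl11b, detection rested on 1 probe of several, or on that probe and a dim one.

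**Figure D1:**
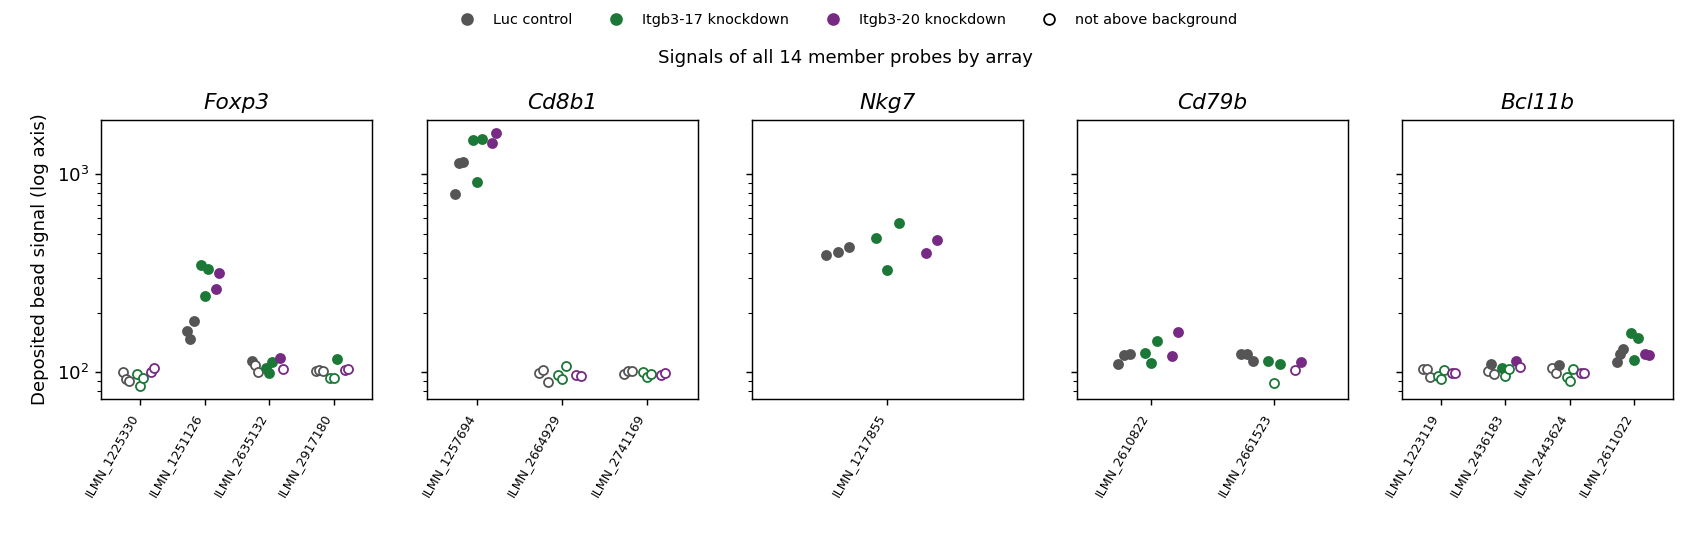
Signals of the 14 member probes on each of the 8 arrays, on a log axis of the scanner's linear units, with filled points above background and open points not. Cd8b1, Foxp3 and Nkg7 each have 1 probe whose signals, from 146 upward, stand clear of the untested probes at 85.2 to 116.

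Foxp3, read by probe ILMN_1251126, rose with both hairpins. Its log2 level was 6.66, 6.20 and 6.79 in the controls, 7.61, 7.68 and 7.54 with Itgb3-17, and 7.81 and 7.71 with Itgb3-20. All 5 knockdown arrays lay above all 3 controls, which was also the case for 11.5% of the tested probes. The group means were 6.55 ± 0.306 (SD, n = 3) in the controls and 7.67 ± 0.102 (SD, n = 5) with knockdown. Weighting both hairpins equally, the change was 1.13 ± 0.153 on the log2 scale (SE; limma adjusted p = 0.000395; 95% interval 0.81 to 1.46), or 2.19-fold. It was 1.06 ± 0.170 with Itgb3-17 and 1.21 ± 0.190 with Itgb3-20 (SE; adjusted p = 0.00147 and 0.00168), and both are set against the same controls. In bulk samples such as these, more cells of a type and more RNA per cell cannot be told apart, nor can fewer cells of a type and less RNA per cell. Before any normalization the signals were 162, 146 and 181 in the controls, 347, 244 and 330 with Itgb3-17, and 262 and 316 with Itgb3-20. These did not overlap either, but the share of all tested probes without overlap in such signals was not computed. They are the same measurements, not scaled between arrays, and no separate support. No difference between the hairpins passed the test (0.15 ± 0.190, SE; adjusted p = 0.832; 95% interval -0.25 to 0.55). The change stayed past the threshold in all 17 other settings, between 0.70 with no background correction and 1.44 with median scaling.

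The second tested Foxp3 probe, ILMN_2635132, was not called. It was above background on 1 of 3 control, 3 of 3 Itgb3-17 and 1 of 2 Itgb3-20 arrays. Its levels were 5.0, 4.66 and 4.54 in the controls, 4.63, 4.73 and 4.74 with Itgb3-17, and 5.34 and 4.49 with Itgb3-20, so the groups overlapped. The change was 0.08 ± 0.181 (SE; adjusted p = 0.827), with a 95% interval of -0.31 to 0.46 that lies below the change of the other probe. Within each array, the difference between the brighter and the dimmer Foxp3 probe was 1.82 ± 0.375 in the controls (SD, n = 3) and 2.88 ± 0.272 with knockdown (SD, n = 5). That shift of 1.06 had a two-sided exact permutation p of 0.0179, the smallest that 3 against 5 arrays allow, and 0.0536 when adjusted over the 3 genes with 2 tested probes. This pairwise test, for Foxp3 as for Cd79b and Bcl11b, was added after the values had been seen. As the dim Foxp3 probe changed little, the shift mostly restates the known change of the brighter probe and is no separate support for it. The dim probe lay near background, and what each probe hybridises to was not tested.

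Markers of the sorted cells were read over the same groups as Foxp3. The summed normalized level of the 18 listed markers of leukaemic myeloid progenitors was 17431 to 19429 in the controls, 20958 to 22944 with Itgb3-17 and 24716 to 26199 with Itgb3-20, without overlap. Such a sum on the linear scale is set mostly by the brightest genes. The mean log2 level of the 18 was 7.55 to 7.65 in the controls and 7.59 to 7.64 with Itgb3-17, inside the control range. With Itgb3-20 it was 7.71 to 7.90. Of the 16 tested, 3 rose and 1 fell, beside 8.93% and 7.84% of all tested probes. Their median change was 0.11, beside 0.0178 over all tested probes. Mpo, the myeloperoxidase of granulocyte precursors, rose by 0.99 (adjusted p = 0.000694), Elane, neutrophil elastase, by 0.56 (adjusted p = 0.0118) and Fcgr2b, an Fc receptor, by 0.51 (adjusted p = 0.0181). Hoxa9, a homeobox gene activated by MLL fusions, fell by 0.81 (adjusted p = 0.0222). In each of these but Mpo the call was lost without 1 or more single arrays. For Hoxa9 it also ended under median scaling, at -0.46, with no filter (adjusted p = 0.204) and with both hairpins as a single group (adjusted p = 0.0752). The Hoxa9 change was -0.47 without Itgb3-20 replicate 4 and -1.16 without Itgb3-20 replicate 5. Of 4 tested markers of mast cells and basophils 1 rose, beside the same 8.93% of all tested probes. It was Cpa3, a mast cell protease, at 0.69 (adjusted p = 0.00509). The Cpa3 probe read was near background, at log2 levels of 4.38 to 5.47, and above it on 5 of 8 arrays. Its change was 0.22 with no background correction. The other Cpa3 probes were above background on 0 and 1 array. The sum over the 8 markers was 463 to 543 in the controls, 443 to 517 with Itgb3-17 and 598 to 671 with Itgb3-20. The part of these shifts in the changes of Foxp3 and of the other members and lists was not tested.

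Genes next to Foxp3 were read as well. In the RefSeq annotation Flicr, a long noncoding RNA, overlaps Foxp3 on the same strand, and its probe was above background on 0 of 8 arrays. Ccdc22 overlaps it on the opposite strand and was not analysed here. Cacna1f, a calcium channel gene and the nearest tested neighbour, changed by 0.03 (log2, adjusted p = 0.931).

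Among 30 genes tied to regulatory T cells, 26 besides Foxp3 had a probe and 13 were tested. Of these 2 rose and 1 fell (1 and 0 without Luc control replicate 2, and 4 and 1 without Itgb3-20 replicate 5), against 8.93% and 7.84% of all tested probes, and their median change was 0.25 beside 0.0178 over all tested probes. Stat5a, which transmits interleukin 2 signals, rose by 0.71 (adjusted p = 0.00825), and Tgfb1, a cytokine that can induce Foxp3 in T cells, rose by 0.63 (adjusted p = 0.00575). Ebi3, a subunit of interleukin 35, fell by 0.50 (adjusted p = 0.0221), with a change of -0.77 with Itgb3-17 (adjusted p = 0.00489) and -0.23 with Itgb3-20 (adjusted p = 0.444). Its call did not survive median scaling, at -0.21, nor the removal of Luc control replicate 1, Luc control replicate 2 or Itgb3-17 replicate 1, when it was between -0.41 and -0.50. Stat5a was also past the threshold in every setting other than no filter (adjusted p = 0.0545) and without Luc control replicate 2, which left 0.55 (adjusted p = 0.0567). The markers that define regulatory T cells, Il2ra, Ctla4, Ikzf2, Tnfrsf18 and Gpr83, were above background on 2, 0, 4, 7 and 1 arrays. Their summed normalized level was 114 to 123 in the controls, 120 to 136 with Itgb3-17 and 117 to 122 with Itgb3-20. Of the 3 tested 0 were called, and 0 had an unadjusted p under 0.05, beside 3972 of all 13315 tested probes.

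**Figure D2:**
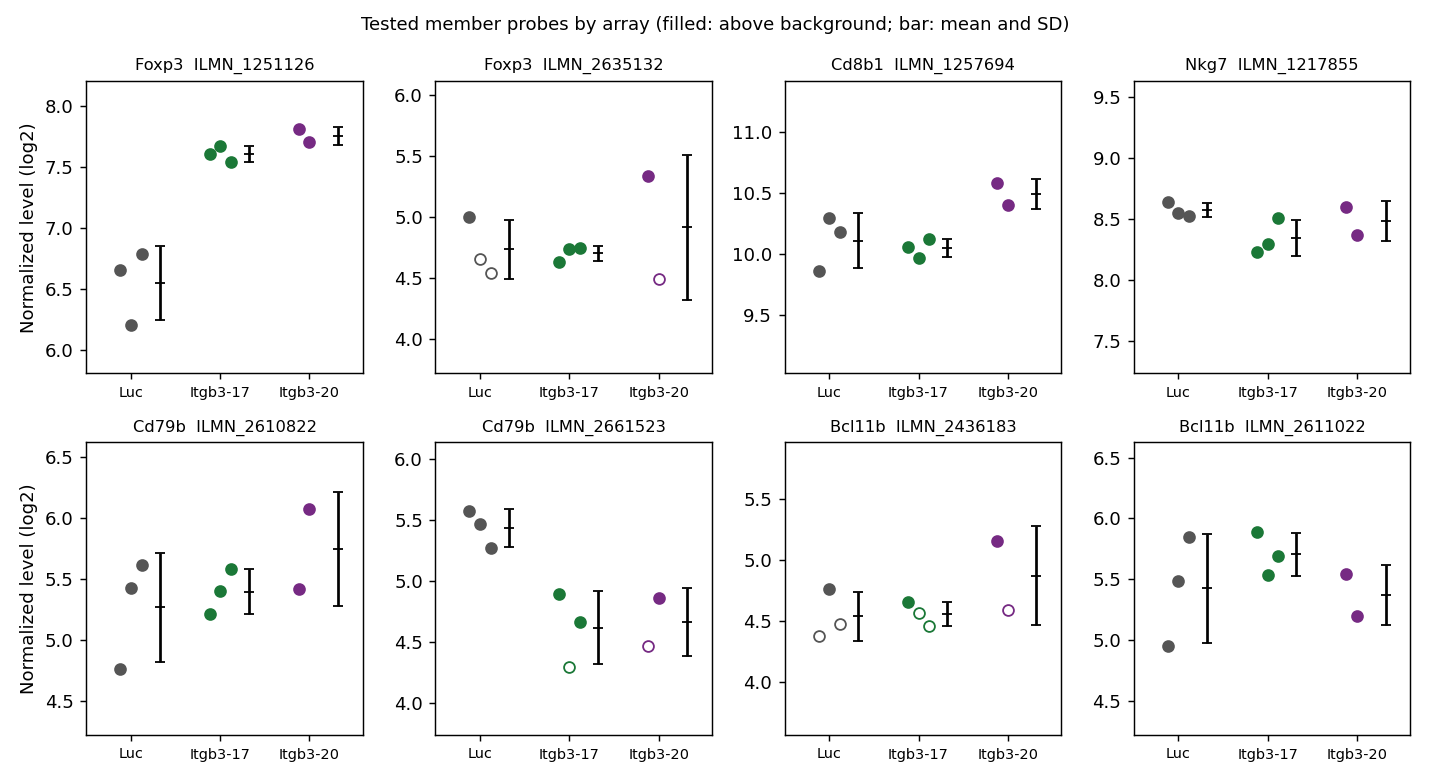
Normalized log2 level of the 8 tested member probes on each array by group, with filled points above background and bars for the mean and SD. Foxp3 ILMN_1251126 is higher on every knockdown array than on every control, Cd79b ILMN_2661523 is lower on every one, and the other 6 overlap.

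Cd8b1 had a strong signal on every array, and no change in its level passed the test. Probe ILMN_1257694 gave log2 levels of 9.86, 10.29 and 10.18 in the controls, 10.06, 9.97 and 10.12 with Itgb3-17, and 10.58 and 10.41 with Itgb3-20. Both Itgb3-20 arrays lay above all others, and the Itgb3-17 arrays fell inside the control range. For how many of all tested probes 2 arrays of a group lay above all others was not counted, so this order is a description. Knockdown minus control was 0.16 ± 0.145 (SE; adjusted p = 0.496; 95% interval -0.15 to 0.47). Itgb3-20 minus control was 0.38 ± 0.180 (SE; adjusted p = 0.194) and Itgb3-20 minus Itgb3-17 was 0.44 ± 0.180 (SE; adjusted p = 0.332), short of the threshold in both. The first of these passed it in 2 other settings, at 0.36 with no background correction (adjusted p = 0.0458) and at 0.36 on the authors' processed values (adjusted p = 0.0369). The 2 other Cd8b1 probes were above background on 0 of 8 arrays.

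The partner of Cd8b1 was not detected beside it. Both probes of Cd8a, the alpha chain gene that adjoins Cd8b1 in the genome, were above background on 0 of 8 arrays. Of the 21 other genes listed for the T cell receptor, its coreceptors and signalling that had a probe, 12 were above background on 0 arrays and 1 on all 8. The 4 that were tested besides Cd8b1 included 0 calls, beside 16.8% of all tested probes, with a median change of -0.16. At an unadjusted p under 0.05 there was 1, lower, beside 3972 of all 13315 tested probes in either direction. Among 12 T cell markers other than the members, Cd3d, Cd3g, Cd4, Cd8a, Cd5, Cd2, Thy1 and Il7r were above background on 0 arrays. Cd247 and Zap70 were above background on 4 arrays each, Cd3e on 2 and Lat on 1, and 0 were on all 8. The summed normalized level of the 12 was 256 to 276 in the controls, 248 to 268 with Itgb3-17 and 252 to 253 with Itgb3-20.

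Bcl11b, the T lineage factor, was dim throughout. Probe ILMN_2611022 gave log2 levels of 4.96, 5.48 and 5.84 in the controls, 5.89, 5.54 and 5.69 with Itgb3-17, and 5.55 and 5.20 with Itgb3-20. The groups overlapped, and the controls alone spanned nearly the whole range. The change was 0.11 ± 0.185 (SE; adjusted p = 0.736; 95% interval -0.28 to 0.50). Probe ILMN_2436183, above background on 3 of 8 arrays, gave 0.18 ± 0.160 (adjusted p = 0.497), and the remaining Bcl11b probes were not tested. Within arrays the difference between both tested Bcl11b probes was -0.89 in controls and knockdown alike (exact permutation p = 1).

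Of 18 other T lineage transcription factors with a probe, 10 were above background on 0 arrays, 5 were tested, and 2 fell while 0 rose, beside 7.84% and 8.93% of all tested probes. Ets1, which also acts in B and NK cells, fell by 1.24 (adjusted p = 0.000504). Its mean level went from 7.65 ± 0.403 among controls (SD, n = 3) to 6.43 ± 0.116 (SD, n = 3) with Itgb3-17 and 6.39 ± 0.267 (SD, n = 2) with Itgb3-20. As with Foxp3, that reading came from 1 of 4 probes, the other 3 being above background on 0 or 1 array. Cbfb, the partner of the Runx factors, fell by 0.54 (adjusted p = 0.0170), but by 0.26 under median scaling (adjusted p = 0.575), and removing Luc control replicate 2 or Itgb3-20 replicate 4 ended its call too, leaving 1 fall. The median of the 5 was -0.34, beside 0.0178 over all tested probes. Vrk1, a kinase gene next to Bcl11b, rose by 0.62 (adjusted p = 0.0187), and the call ended with no filter or on removing Luc control replicate 2, Luc control replicate 3 or Itgb3-20 replicate 4. Among 14 lymphoid progenitor genes with a probe, 5 were tested and 1 was called, lower, beside 7.84% of all tested probes. It was Hhex at -0.65 (adjusted p = 0.0357), with -1.01 for Itgb3-17 and -0.28 for Itgb3-20, and it lost its call in 11 other settings.

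Nkg7, the cytotoxic granule gene, has a single probe, ILMN_1217855, and no change in it passed the test. Its log2 levels were 8.64, 8.55 and 8.52 in the controls, 8.22, 8.29 and 8.51 with Itgb3-17, and 8.60 and 8.37 with Itgb3-20. The Itgb3-17 arrays lay below the controls, the highest at 8.51 beside 8.52, and an Itgb3-20 array lay among them. The share of all tested probes with such an order was not computed. Before normalization the signals were 392, 405 and 431 in the controls and 478, 328 and 566 with Itgb3-17, so the order depended on the normalization. The change was -0.16 ± 0.139 (SE; adjusted p = 0.490; 95% interval -0.45 to 0.14), and under median scaling its sign turned, at 0.13. Per hairpin it was -0.23 ± 0.154 with Itgb3-17 (adjusted p = 0.371) and -0.09 ± 0.173 with Itgb3-20 (adjusted p = 0.801), turning to 0.17 and 0.09 under median scaling.

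The list of cytotoxic lymphocyte genes, which holds receptors, adaptors, chemokines and transcription factors as well as granule proteins, gave 3 rises and 1 fall among 16 tested besides Nkg7, of 32 with a probe. The shares of all tested probes were 8.93% and 7.84%, and the list's median change was 0.06. Without Luc control replicate 2 the counts were 1 and 0. Prf1, the pore-forming protein perforin, rose by 0.98 (adjusted p = 0.00567). Its control mean was 6.29 ± 0.480 (SD, n = 3), against 7.19 ± 0.229 (SD, n = 3) for Itgb3-17 and 7.35 ± 0.529 (SD, n = 2) with Itgb3-20. Prf1 too was read by 1 of its 2 probes, the other being above background on 1 array, and it lost its call with no filter (adjusted p = 0.0882). Stxbp2, a factor of granule release, rose by 0.53 (adjusted p = 0.0148), but missed the threshold once Luc control replicate 2 was removed, at 0.50 (adjusted p = 0.0590). Hcst, the adaptor DAP10, rose by 0.52 (adjusted p = 0.0201), but that change was 0.16 with Itgb3-17 and 0.88 with Itgb3-20, and the call ended with both hairpins as a single group or on removing Luc control replicate 2 or 3 or Itgb3-20 replicate 4. Lamp1, a lysosomal membrane protein of many cell types, fell by 0.52 (adjusted p = 0.0190), and the call ended under median scaling, at -0.18, or on removing Luc control replicate 1 or 2 or Itgb3-20 replicate 5.

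NK cell markers were scarce beside Nkg7. Of 11 others, 9 were above background on 0 arrays and Prf1 alone on all 8. Their summed normalized level was 243 to 302 in the controls, 322 to 377 with Itgb3-17 and 327 to 417 with Itgb3-20, a sum that includes Prf1. Cldnd2, the nearest tested neighbour of Nkg7, changed by -0.30 (adjusted p = 0.156).

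Cd79b, the B cell receptor chain, fell by 1 of its 2 probes, and no change of the other passed the test. Probe ILMN_2610822 was above background on all 8 arrays, with log2 levels of 4.77, 5.43 and 5.62 in the controls, 5.21, 5.40 and 5.58 with Itgb3-17, and 5.42 and 6.08 with Itgb3-20. The groups overlapped, and the change was 0.30 ± 0.199 (SE; adjusted p = 0.338; 95% interval -0.12 to 0.73). Probe ILMN_2661523 gave 5.58, 5.47 and 5.27 in the controls, 4.89, 4.30 and 4.66 with Itgb3-17, and 4.47 and 4.86 with Itgb3-20. Here every knockdown array lay below every control, as it did for 8.87% of tested probes. The log2 level of this probe fell by 0.80 ± 0.164 (SE; adjusted p = 0.00417; 95% interval -1.15 to -0.45), which is 1.74-fold lower.

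The fall of that Cd79b probe took place close to background. It was above background on 3 of 3 controls but on only 3 of 5 knockdown arrays, and its signals were 123, 123 and 114 in the controls and 88.1 to 113 with knockdown. Its change was -0.82 ± 0.182 with Itgb3-17 (SE; adjusted p = 0.00838) and -0.78 ± 0.204 with Itgb3-20 (adjusted p = 0.0234). The call depended on the processing. Under median scaling the knockdown change was -0.54 (adjusted p = 0.101), and with no background correction it was -0.25 and still called. With Itgb3-20 the call was lost in 7 of 17 other settings, among them those lacking Luc control replicate 1 (-0.71, adjusted p = 0.0626), Luc control replicate 2 (-0.76, adjusted p = 0.0582) or Itgb3-20 replicate 4 (-0.58, adjusted p = 0.222), and for Itgb3-17 it ended on removing Itgb3-17 replicate 2 (-0.66, adjusted p = 0.0563). Within an array, the difference between both Cd79b probes was -0.17 ± 0.590 for controls (SD, n = 3) and 0.90 ± 0.347 for knockdown (SD, n = 5), a shift of 1.07 (exact permutation p = 0.0357, adjusted over 3 genes 0.0536). That test too was added with the fall of 1 of the probes known, and is no separate support for the fall.

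Around Cd79b, the signalling genes of the B cell receptor were measured more often than the receptor itself. Of 22 other genes of the receptor and its signalling with a probe, 11 were tested, and 4 rose while 0 fell, beside 8.93% and 7.84% of all tested probes. The median change was 0.34, beside 0.0178 over all tested probes. The count of rises was 1 without Luc control replicate 1, 2 with no filter or without Luc control replicate 3, and 6 with no background correction, an offset of 50, trend and robust moderation or the authors' values. Prkcb, a protein kinase C that acts below the receptor, rose by 0.62 (adjusted p = 0.00876). Inpp5d, the lipid phosphatase SHIP1, rose by 0.69 (adjusted p = 0.0138), but missed the threshold with no filter and on removing Luc control replicate 1, at 0.51. Bcl10, an adaptor on the way to NF-kB, rose by 0.49 (adjusted p = 0.0215), not so once Luc control replicate 1 or 3 was removed. Pik3cd, the delta isoform of the PI3 kinase catalytic subunit, rose by 0.48 (adjusted p = 0.0326), a call lost in 7 other settings. These genes act in myeloid cells as well. Syk, which binds the phosphorylated tails of Cd79a and Cd79b, had 1 probe, above background on 0 of 8 arrays.

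Genes that define B cells were near background. Of 10 markers besides Cd79b, Ms4a1, Pax5, Ebf1, Cd22, Igll1, Blnk, Blk and Cr2 were above background on 0 arrays. Vpreb1 and Vpreb3 were above background on 1 array each, and 0 markers were on all 8. The summed normalized level of the 10 was 201 to 215 in the controls, 200 to 203 with Itgb3-17 and 212 to 213 with Itgb3-20. Of 19 B lineage genes with a probe, 4 were tested and 0 were called, beside 16.8% of all tested probes. At an unadjusted p under 0.05 there were 0 as well, beside 3972 of all 13315 tested probes.

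**Figure D3:**
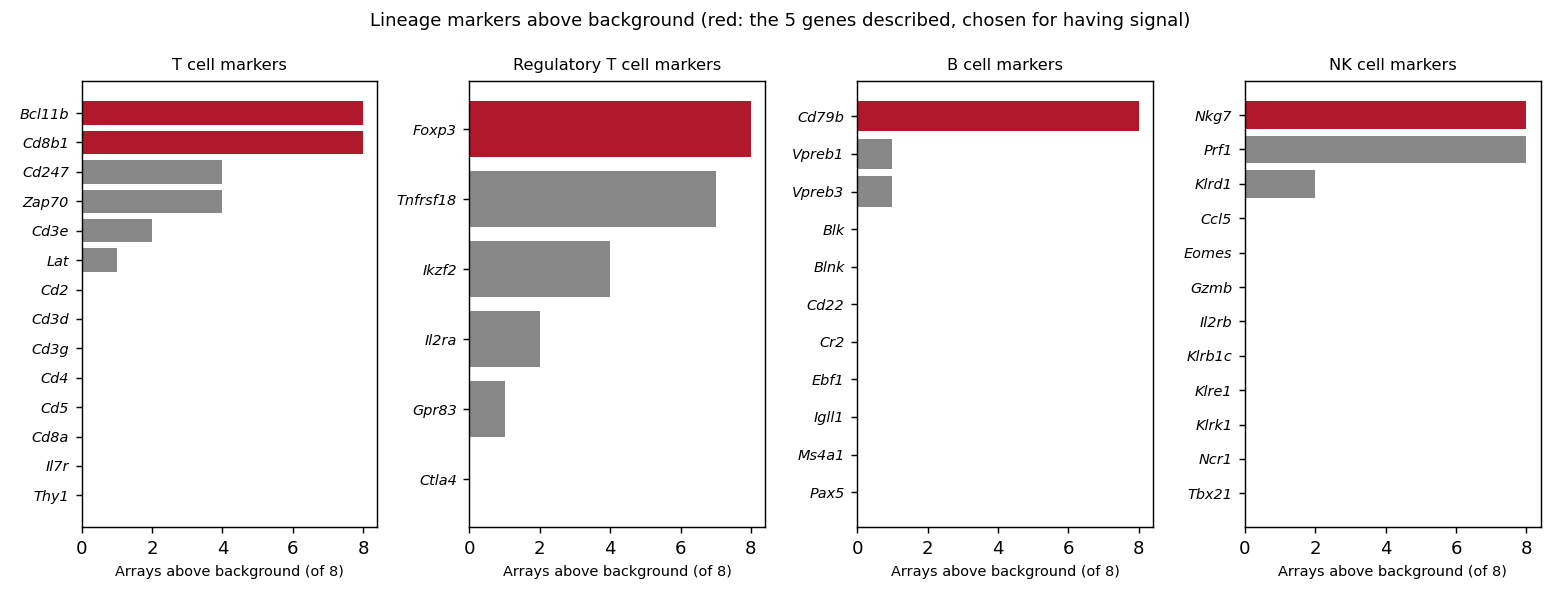
Number of arrays (of 8) on which each marker of T, regulatory T, B and NK cells with a probe was above background, as a bar per gene, with the 5 members in red, whose height is set by their choice for having signal. Among the markers in grey Prf1 is on all 8 arrays and Tnfrsf18 on 7, and most are at 0.

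Read as a check of the sorted cell type, 13 of 18 listed markers of leukaemic myeloid progenitors were above background on all 8 arrays. Yet a probe below background does not show that a gene is not expressed: Cd34, part of the sort gate, was above background on 1 array, and Ptprc, carried by all leukocytes, on 0 with any of its 4 probes. The targeted gene could not check the labels either, since the Itgb3 probe was above background on 0 of 8 arrays. Each array had 9262 to 11856 probes (20.5% to 26.2%) above background. With 8 arrays in all, precision is limited by their number.

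Over all 5 genes, 2 of the 8 tested member probes were called in knockdown minus control, 1 higher (Foxp3) and 1 lower (Cd79b), beside 16.8% of the 13315 tested probes. The same counts held with Itgb3-17, beside 12.9% of tested probes (7.22% higher, 5.69% lower), and with Itgb3-20, beside 11% (5.71% higher, 5.27% lower). The same 2 probes were those with all knockdown arrays outside the control range, beside 20.3% of tested probes. The members' median change was 0.14. Between the hairpins 0 of 8 were called by limma, beside 0.533% of tested probes (0.248% higher, 0.285% lower). At an unadjusted limma p under 0.05 there was 1 of the 8 (Cd8b1), beside 1573 of the 13315 tested probes. Over all tested probes 1189 rose and 1044 fell, but 1327 and 79 under median scaling, which moved the median change of all tested probes from 0.0178 to 0.149. Relative to that median, the change under median scaling was 1.29 for Foxp3 ILMN_1251126 and -0.69 for Cd79b ILMN_2661523, beside 1.12 and -0.82 as reported. The tests themselves are against 0, and in them the first kept its call and the second did not.

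**Figure D4:**
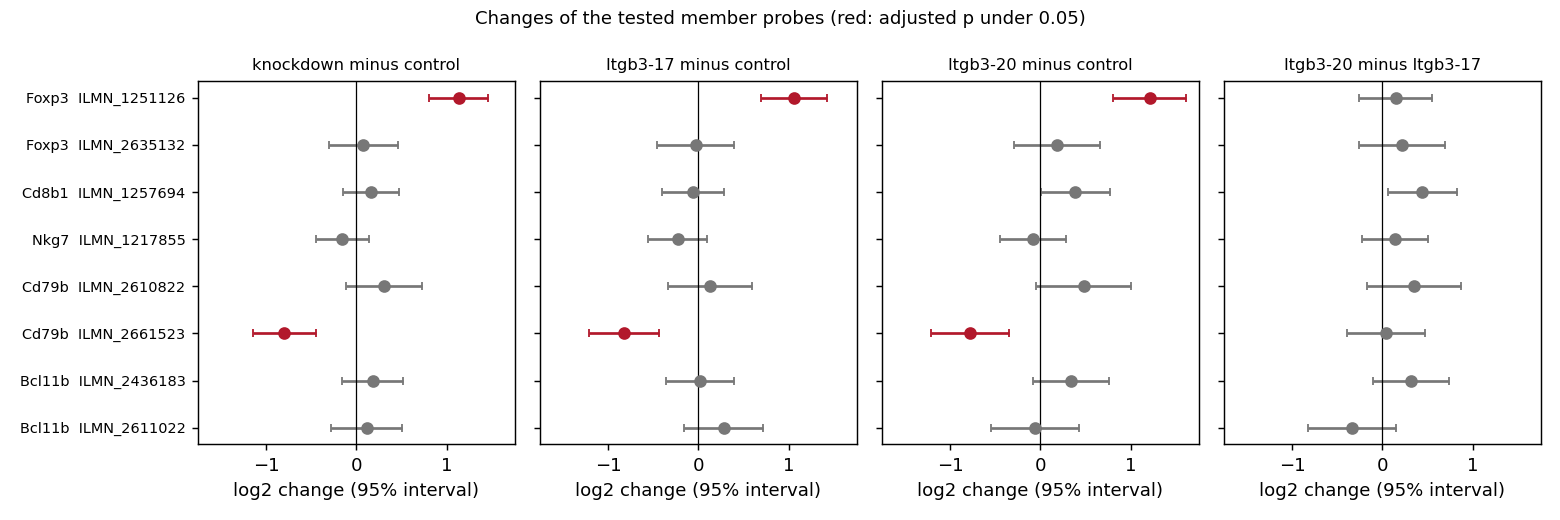
Log2 change (point) with its 95% interval (bar) of the 8 tested member probes, for knockdown, Itgb3-17 and Itgb3-20 against the Luc control and between the hairpins, with called probes in red. Foxp3 ILMN_1251126, at 1.13, and Cd79b ILMN_2661523, at -0.80, are the ones called in knockdown minus control.

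Across the 8 arrays, the tested probes most like each member were read as a description, by Pearson's correlation of log2 levels over points that share normalization and groups. Foxp3 ILMN_1251126 ran most closely with Rin3 (r = 0.992), Trim8 (0.992) and Ddx54 (0.988). Rin3 rose by 1.22 (adjusted p = 0.000323) and Ddx54 by 0.57 (adjusted p = 0.0102), while Trim8, at 0.39, was not called (adjusted p = 0.0569). Cd8b1 ran with Pilrb1 (0.971), Pik3cg (0.969) and Yipf1 (0.960), and Nkg7 with Creld2 (0.956), Nipbl (0.923) and Dguok (0.915). The falling Cd79b probe ran with Klf16 (0.983), Pias1 (0.982) and Usp47 (0.981), whereas the other Cd79b probe ran with Cox5a (0.993), Fa2h (0.962) and Top1mt (0.955). Bcl11b ILMN_2611022 ran with Csnk2a2 (0.950), Tmem186 (0.940) and Cnot4 (0.938). No 2 probes of the same member shared a gene in these lists. Over the arrays, levels of both tested probes of a gene correlated at r = 0.18 for Foxp3, -0.35 for Cd79b and 0.17 for Bcl11b.

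**Figure D5:**
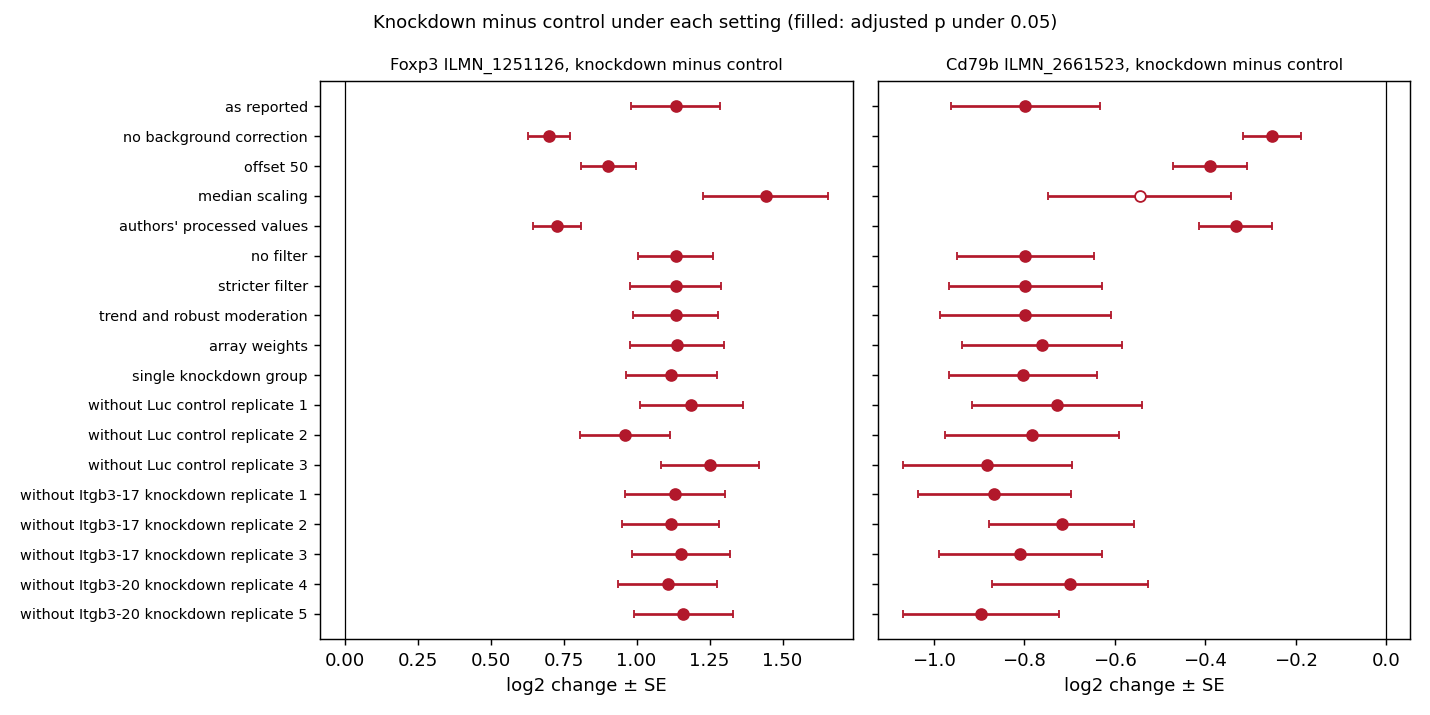
Log2 change ± SE, knockdown minus control, of the 2 called member probes under each processing setting and with each array left out, filled where called. Foxp3 ILMN_1251126 stays between 0.70 and 1.44, and Cd79b ILMN_2661523 stays below 0, between -0.90 and -0.25, and is not called under median scaling.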

How the data were processed

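Total RNA, isolated with Trizol and biotin-labelled per the labels' protocols, was hybridised to Illumina bead arrays. The deposited signals are average bead intensity values on a linear scale, not normalized, per the file headers. The authors deposited a detection p-value beside each signal, computed in a way the sources used here do not state. Another deposited table holds log2 values of the same arrays. Its columns share a median of 6.61 and rank probes as the signals do (Spearman 1), and its normalization and offset are not stated. It was used as an alternative.

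With limma 3.58.1 in R 4.3.3, signals had their background corrected (normexp, offset 16), the detection p-values serving to infer the negative controls, and were quantile normalized and log2 transformed. The 13315 of 45281 probes that reached a detection p under 0.05 on 2 or more arrays were tested. A 3-group model over the 8 arrays (lmFit, eBayes, two-sided) gave each hairpin minus control, their difference, and knockdown minus control, the mean of both hairpins. Benjamini-Hochberg adjustment ran over all tested probes, and an adjusted p under 0.05 was a call. On simulated data of 13315 probes with this design, 200 of 200 changes of 2-fold were recovered, with 17 false calls (7.83% of calls). The noise was independent and normal with the fitted spreads, so the simulation does not show how well changes near background are recovered. Gene symbols came from the array's annotation (34885 probes with 1 symbol, 18 with several, 10378 unnamed here). Promoter windows came from RefSeq, with entries for 3 of the 5 members (Foxp3, Nkg7 and Bcl11b). No 2 arrays held identical values.

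The members, gene lists and tests were chosen with earlier results of these data known. All member probes are described. From each list at most the 4 called genes of lowest p are named, a gene with several tested probes being read by that of highest mean, and 3 probes of other genes are named for likeness to each member probe shown. Marker genes are named by the arrays on which they were above background. Alternatives were other background corrections, scalings, filters, variance models and groupings, the authors' log2 values, a replicate block and each array left out.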

Additional observations from a re-analysis of the deposited data

Results flagged for a closer look

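Over the 5 knockdown arrays, the dim Bcl11b probe ILMN_2436183 had 1 array far from the others. Itgb3-20 replicate 4 stood at 5.15 on the log2 scale and the other knockdown arrays at 4.45 to 4.65, so that the gap took a share of 0.714 of the whole range. Chance alone marks about 1 in 20 such groups. The probe was above background on 3 of 8 arrays, and without that array its knockdown change was 0.04 instead of 0.18, with a call in neither case.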

How the results depend on the processing

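The rise of Foxp3 ILMN_1251126 was called under every alternative run, for knockdown and for each hairpin. The count of called member probes fell from 2 to 1 through Cd79b ILMN_2661523 under median scaling (knockdown and both hairpins), with no filter (both hairpins) and with array weights (Itgb3-20). For Itgb3-20 it was 3 on the authors' values, where Cd8b1 was called as well (0.36), and 2 with no background correction, where Cd8b1 (0.36) was called and Cd79b was not. With an array left out it was 2 throughout for knockdown and between 1 and 2 for each hairpin. Between the hairpins it was 0 in every setting. For probes without a call, median scaling turned the sign of Nkg7 (0.13 for knockdown, 0.17 for Itgb3-17, 0.089 for Itgb3-20 and -0.079 between hairpins), of Foxp3 ILMN_2635132 (0.069) and Cd8b1 (0.35) with Itgb3-17, of Bcl11b ILMN_2611022 with Itgb3-20 (0.039), and between hairpins of Foxp3 ILMN_1251126 (-0.13) and Cd79b ILMN_2661523 (-0.040, and -0.015 with array weights). Leaving out an array turned other uncalled signs. For Foxp3 ILMN_2635132 the changes then ran from -0.14 to 0.29 (knockdown), -0.13 to 0.10 (Itgb3-17), -0.24 to 0.60 (Itgb3-20) and -0.21 to 0.64 (between hairpins). For Bcl11b ILMN_2611022 they ran from -0.12 to 0.32 (knockdown) and -0.29 to 0.15 (Itgb3-20), and for Bcl11b ILMN_2436183 from -0.061 to 0.14 (Itgb3-17). For Cd8b1 they ran from -0.18 to 0.032 and for Cd79b ILMN_2610822 from -0.12 to 0.30 (both Itgb3-17), for Nkg7 from -0.20 to 0.029 (Itgb3-20) and for Cd79b ILMN_2661523 from -0.15 to 0.24 (between hairpins). The cause was not tested. All-probe counts for knockdown fell from 1189 higher and 1044 lower to 795 and 649 with no filter, where 45281 probes were tested. A stricter filter left 6 member probes, with no value for Foxp3 ILMN_2635132 and Bcl11b ILMN_2436183. Leaving out an Itgb3-20 array leaves 1, assumed to vary like the other groups, and such fits kept the normalization of all 8 arrays. With the replicate block (numbers 1 to 3, Itgb3-17 against control) 2 member probes were called, as without it. The deviations of same-numbered arrays from their group means correlated at only 0.0279, -0.0240 and -0.00589. With 3 arrays per group, these values cannot settle whether same-numbered arrays shared a source, which is not given. With no background correction the knockdown change of Foxp3 ILMN_1251126 was 0.70 in place of 1.13, and that of Cd79b ILMN_2661523, whose signals lie near the array median, was -0.25 in place of -0.80.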
